A study of Mus musculus with 10 samples.

Results

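Neurons of the embryonic mouse cortex that carried RNA of Inhba, the gene of the activin and inhibin subunit beta A, together with several genes of maturing neurons were examined. A cell was counted as Inhba-positive if it held at least 1 unique molecular identifier (UMI, 1 counted RNA molecule) of Inhba and UMIs of at least 3 of the 6 accompanying genes Kcnip4, Nrgn, Kif26b, Syt4, Scg2 and Nwd2. It also had to hold at least 1 UMI of Neurod6, a transcription factor gene of cortical excitatory neurons, and at most 1 UMI summed over Dlx1, Dlx2 and Dlx5, which mark cortical interneurons. The gate found 1853 cells, which were 2.82% of the 65779 cells kept after a floor of 1000 UMIs and a ceiling of 10% for mitochondrial UMIs. Kept cells that met both the Neurod6 and the Dlx condition, 39785 in all, are called Neurod6-positive cells below. The 1853 cells were 4.66% of them. Since measured UMIs chose the cells, levels of Inhba and of the other gate genes in them are given as a description.

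The cells came from single-cell RNA sequencing of freshly dissected cortex of 10 mouse embryos at E16.5 (embryonic day), with 1 10X Genomics 3′ library per embryo. The 3 WT embryos carried no mutant allele, the 4 Het embryos were Gatad2b stop/+ and the 3 KO embryos were Gatad2b stop/stop, and no embryo was treated. The study's mice had the C57BL/6N-A tm1Brd background. Gatad2b encodes a subunit of the nucleosome remodeling and deacetylase (NuRD) complex, and the comparisons ask which genes move when 1 or both of its copies are disrupted. The stop allele is constitutive, so it acts in all cells of the embryo and not only in these neurons. It carries a trapping cassette in an intron and keeps the exons, and the paper names skipping of the cassette as a possible source of wild-type RNA. The source of Gatad2b UMIs from the stop allele was not tested. By western blot and immunostaining, the paper found no Gatad2b protein in stop/stop mice.

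Activin A is a dimer of inhibin beta A chains and a secreted ligand of the TGF-beta family. It binds type II receptors (Acvr2a, Acvr2b), which activate type I receptors (Acvr1b, Acvr1c), and the signal passes to the nucleus through Smad2, Smad3 and Smad4. Follistatin, the product of Fst, binds activin and keeps it from its receptors. In neurons Inhba is known as a gene that activity and calcium entry induce. Among the accompanying genes, Kcnip4 encodes an accessory subunit of Kv4 (A-type) potassium channels, Nrgn encodes the calmodulin-binding protein neurogranin, Kif26b encodes a kinesin family member, Syt4 encodes a synaptotagmin, and Scg2 encodes secretogranin II of dense-core vesicles.

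Cells numbered 292, 285 and 242 in WT, 155, 181, 178 and 221 in Het and 103, 91 and 105 in KO. Summed over these cells, an embryo held between 2647742 and 8406614 UMIs, so genes were measured least precisely in KO. The library names carry 1 of 2 prefixes, whose meaning the sources do not give. WT 1 to 3 and Het 4 share 1 prefix, and Het 1 to 3 and KO 1 to 3 share the other. The prefix separates KO from WT completely, so the effect of the genotype and that of the prefix cannot be told apart in that comparison. For this reason KO was also compared with Het 1 to 3 within 1 prefix. Of 79307 distinct barcodes, 754 occurred in more than 1 library, and none was that of an Inhba-positive cell in more than 1 library. Cells marked as likely doublets made up 7.72% of the Inhba-positive cells and 5.73% of the other Neurod6-positive cells, and 9.82% of those matched on UMIs.

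Gatad2b followed the labels in the Inhba-positive cells. Levels are given in CPM, the UMIs of a gene relative to the total of the embryo after TMM normalization, and were 132, 119 and 118 CPM in WT, 76.1, 77.9, 80.9 and 83.2 in Het and 37.7, 40.4 and 46.6 in KO. The 3 groups did not overlap. Levels fell in Het against WT (log2 fold change -0.63 ± 0.07 (SE), adjusted p = 0.000423), in KO against WT (log2 fold change -1.56 ± 0.08 (SE), adjusted p = 3.87e-08) and in KO against Het 1 to 3 (log2 fold change -0.91 ± 0.09 (SE), adjusted p = 5.68e-05). These adjusted p-values and those of all genes below are from edgeR's quasi-likelihood test on UMIs summed per embryo, with the Benjamini-Hochberg adjustment over all genes tested. A gene was called where the adjusted p was under 0.05 and the absolute log2 fold change above 0.25.

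Within the gate, Syt4 was the most widely found accompanying gene and Nwd2 the least. UMIs of Syt4 were present in 99.0% of the Inhba-positive cells, of Kif26b in 87.0%, of Kcnip4 in 65.1%, of Scg2 in 63.7%, of Nrgn in 49.5% and of Nwd2 in 30.1%. Each embryo's other Neurod6-positive cells were matched to its Inhba-positive cells on total UMIs, since a deeper cell shows more genes. Among these matched cells the shares were 86.4%, 26.2%, 10.4%, 12.8%, 16.0% and 6.15% in the same order. Of the Inhba-positive cells, 812 held exactly 3 of the 6 genes, 521 held 4, 332 held 5 and 188 held all 6. Inhba itself stood at 1 UMI in 368 of them (19.9%), at 2 UMIs in 247 (13.3%) and at 3 or more in 1238 (66.8%), with a median of 4 and a highest count of 80.

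The threshold cuts through a gradient. Just outside it lay 1726 cells with Inhba and exactly 2 of the 6 genes, more than the 812 just inside. Kcnip4 was found in 9.97% of the cells just outside and 42.1% of those just inside, Nrgn in 9.91% and 26.5%, Scg2 in 18.4% and 43.7%, and Nwd2 in 1.74% and 9.11%. Kif26b was found in 62.3% of the cells just outside and in 80.3% of those just inside. A further 2183 Neurod6-positive cells held at least 3 of the 6 genes without an Inhba UMI. To gauge free RNA, the gate genes were also read in cells of other types. Of 233 cells with at least 3 of 4 endothelial markers and no Neurod6 UMI, 2.15% held an Inhba UMI at a median of 20312 UMIs per cell, and of 191 cells with at least 3 of 6 microglial markers it was 2.62% at a median of 3347 UMIs. Among all Neurod6-positive cells, 16.3% held an Inhba UMI at a median of 17228. Of the accompanying genes, Nrgn was found in 11.2% of the endothelial cells against 11.7% of all Neurod6-positive cells, so its share over all Neurod6-positive cells is not read as expression here. Syt4 was found in 11.6% of the endothelial cells against 75.1% and Kif26b in 7.30% against 19.6%, while Kcnip4, Scg2 and Nwd2 were found in 0.429% to 1.29% of the endothelial cells against 9.24%, 11.3% and 3.85%. In the microglial cells Syt4 reached 7.85%, and the other 5 genes were between 0% and 2.09%. Apart from the Neurod6 and Dlx conditions, 1 of the endothelial cells and 0 of the microglial cells passed the Inhba gate.

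The cells carried RNA of cortical excitatory neurons, and the word maturing fits some of their genes and not others. Neurod6, which the gate required, and Neurod2 averaged 1655 and 471 CPM over the 10 embryos, and Bhlhe22 734 against 539 CPM in UMI-matched cells. Against these matched cells, the calcium sensor of synaptic vesicles Syt1 was higher in 10 of 10 embryos (304 against 167 CPM, a mean difference of 0.85 ± 0.20 (SD, n = 10 embryos) in log2(CPM + 5)). Gap43, a growth cone gene, was higher in 10 of 10 (1355 against 973 CPM). Snap25, a SNARE protein gene that rises as neurons mature, was lower in 10 of 10 (78.9 against 146 CPM, -0.84 ± 0.12), and Slc17a7, the vesicular glutamate transporter of mature cortical neurons, was lower in 8 of 10 (24.4 against 28.6 CPM). Because the gate picked these cells, differences from other cells are described without a test.

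The genes that led the Inhba-positive cells over other Neurod6-positive cells, outside the gate, included genes of axon guidance, of cyclic GMP and of calcium. Unc5c, a netrin receptor, averaged 108 against 20.3 CPM in matched cells (2.18 ± 0.36 in log2(CPM + 5)). Gucy1a1 and Gucy1b1, the subunits of soluble guanylate cyclase, averaged 472 against 139 CPM and 166 against 66.7 CPM. The calcium sensor gene Ncald averaged 159 against 51.2 CPM, the Rap guanine nucleotide exchange factor Rapgef5 114 against 34.1 CPM, the teneurin Tenm1 161 against 50.8 CPM and the microtubule-associated Eml1 93 against 27.1 CPM. Mef2c, a transcription factor of cortical excitatory neurons, was among the most abundant, at 2453 against 1029 CPM. Cadm2, a cell adhesion gene, averaged 338 against 122 CPM and Grm2, a group II metabotropic glutamate receptor, 22.4 against 6.53 CPM.

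Among the 10 genes lowest against other cells were genes of progenitors and of dividing cells. Fabp7, a radial glia gene, averaged 26 against 241 CPM in matched cells, Eomes, the transcription factor of intermediate progenitors, 7.90 against 64.6 CPM, and the cyclin gene Ccnd2 22.5 against 106 CPM. The linker histone Hist1h1b and the topoisomerase Top2a of dividing cells averaged 4.47 against 87 CPM and 4.80 against 54.4 CPM, although Hist1h1b shares sequence with other histone genes. Tle4, a corepressor of layer VI neurons, averaged 22 against 97.5 CPM, the netrin receptor Unc5d of migrating neurons 12.1 against 41.5 CPM, and the semaphorin receptor Nrp1 79.8 against 303 CPM. The other two were Mfap4, a microfibril-associated protein, at 3.30 against 24.3 CPM, and the zinc finger factor Zbtb20 at 182 against 709.6 CPM. All 30 of the genes chosen by size kept their sign in 10 of 10 embryos when the other cells were matched on UMIs. The matched cells are a part of the same other cells, so the sign is no separate evidence. Of the 20 highest genes, 13 were also among the 20 highest against matched cells.

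**Figure D1:**
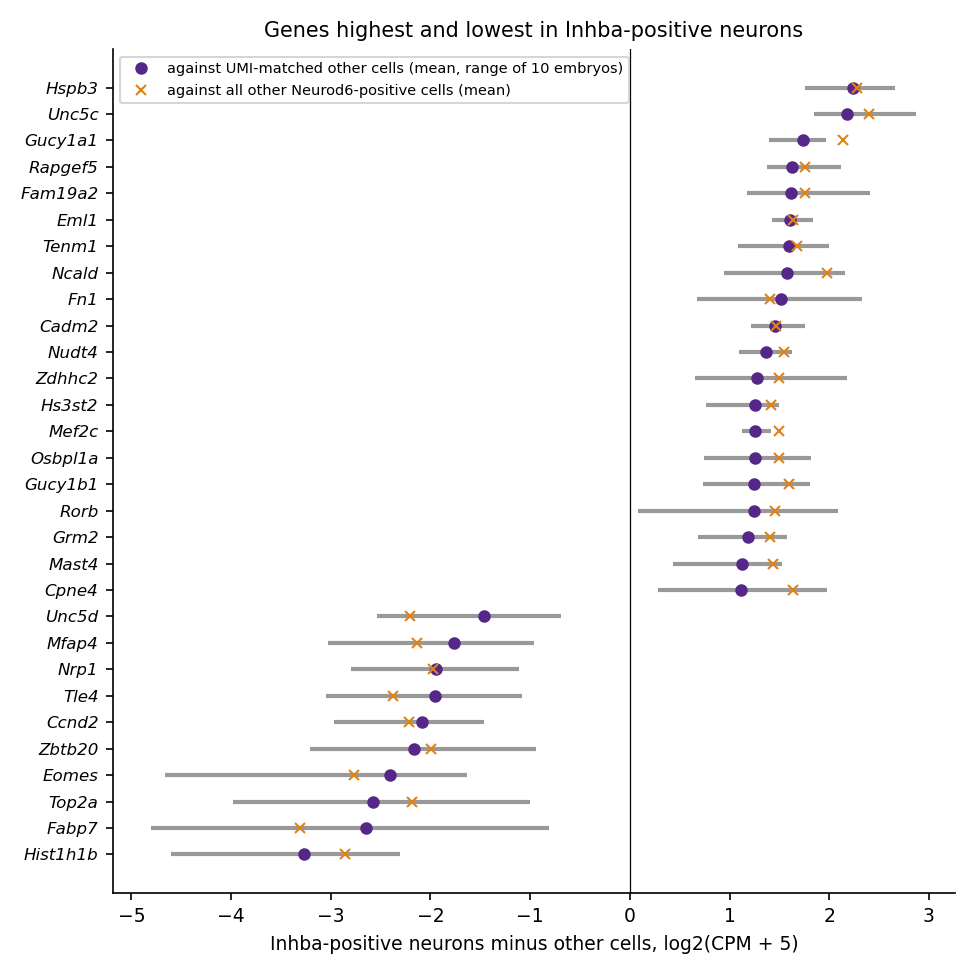
The 20 genes highest and 10 lowest in Inhba-positive cells against other Neurod6-positive cells, as the mean difference in log2(CPM + 5) within an embryo. Purple dots with lines give the mean and range of 10 embryos against UMI-matched cells and orange crosses the mean against all other Neurod6-positive cells; every line stays on its side of 0.

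Gene lists gave the same picture when read against the background, in which 13.7% of 6581 genes were higher and 16.6% lower in 10 of 10 embryos than in UMI-matched cells. Immediate early genes, which neuronal activity induces, were mostly lower: 7 of the 8 abundant enough were lower in 10 of 10 embryos. Fos averaged 24.3 against 68.7 CPM, Fosb 22 against 42.9 CPM and Jun 70.6 against 134 CPM. The exception was Homer1, a postsynaptic scaffold gene (101 against 88.4 CPM). Of 11 genes of immature and migrating neurons, 8 were lower and 0 higher, among them Eomes and Unc5d, given above, and Rnd2 (23.7 against 67.4 CPM). Of 17 calcium and calmodulin genes, 8 were higher and 2 lower. Camk2b averaged 202 against 143 CPM and Camkv 66.1 against 46 CPM. The lower members were Camk4 (34.1 against 48.7 CPM) and the hippocalcin gene Hpca (30.2 against 39.6 CPM). Of 18 synaptic vesicle genes, 7 were higher and 1, Snap25, was lower.

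Of the 10 glutamate receptor genes abundant enough, 4 were higher in 10 of 10 embryos and 2 lower. The NMDA receptor gene Grin2b averaged 385 against 309 CPM and the metabotropic receptor gene Grm5 114 against 73.2 CPM, while the AMPA receptor genes Gria1 and Gria3 were the lower ones, at 25.1 against 36.6 CPM and 18.3 against 39.5 CPM. Of 15 genes of the NuRD complex, 6 were lower and 1 higher. The higher one was Chd5, the chromodomain ATPase of neurons (115 against 68.9 CPM), and its relative Chd4 was lower (265 against 335 CPM). Of the 6 activin ligand and receptor genes abundant enough, Tgfbr1, the TGF-beta type I receptor, averaged 119 against 56.8 CPM and Acvr1, a type I receptor of bone morphogenetic proteins and activin, 59.9 against 34.4 CPM, both higher in 10 of 10 embryos. Acvr2a, an activin type II receptor, was lower in 10 of 10 (48.1 against 82 CPM). Of the 6 activin inhibitor and Smad genes abundant enough, 0 were higher and 0 lower in 10 of 10 embryos. Smad3, which carries the activin signal, was not among these 6. It was below the level required for the counts and averaged 8.71 against 2.39 CPM.

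By layer markers the cells leaned to the upper layers against UMI-matched cells but were mixed. Compared with these, 6 of 11 upper-layer genes were higher in 10 of 10 embryos and 2, among them Unc5d, lower. Of the deep-layer genes, 4 of 7 of layer V and 5 of 6 of layer VI were lower and 0 higher. Against all other Neurod6-positive cells, 5 of the 11 upper-layer genes were higher and 4 lower. There, 1 of 6 layer V genes was higher and 4 lower, and 5 of 6 layer VI genes were lower. Among upper-layer genes, the homeobox genes Cux1 and Cux2 averaged 271 against 119.8 CPM and 63.9 against 39.4 CPM, the cadherin Cdh12 89.4 against 29.6 CPM and the nuclear receptor Rorb 223 against 88.3 CPM. Of the layer V genes, Bcl11b averaged 113 against 437 CPM and Fezf2, which specifies subcerebral projection neurons, 45.5 against 179 CPM. Single cells gave the same mixture. UMIs of both Cdh12 and Hs6st2 were present in 54.8% of the Inhba-positive cells and 23.8% of matched cells, of Fezf2 or Bcl11b in 51.5% and 83.7%, and of Tle4 or Foxp2 in 22.9% and 51.1%. Rorb and Fezf2 were found together in 424 of the 1853 cells (22.9%).

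Markers of most other cell types were low but not at 0, and hemoglobin RNA was high in 5 embryos. In the Inhba-positive cells, the summed level of 6 excitatory neuron markers lay between 2694 and 3315 CPM over the 10 embryos. The summed level of 7 radial glia markers lay between 82.0 and 195 CPM, of 4 intermediate progenitor markers between 26.5 and 64.0, of 6 microglial markers between 0.199 and 11.8, and of 4 endothelial markers between 0 and 84.3. No marker was at 0 in all 10 embryos, and the summed endothelial markers were at 0 in KO 2 and KO 3. Cajal-Retzius markers, 4 in all, summed to between 5.94 and 149 CPM, with the highest sum in Het 1, 3 choroid plexus markers to 35 CPM in WT 1 and at most 2.50 elsewhere, and 4 striatal markers to between 5.35 and 32.4. The 4 hemoglobin genes summed to between 23.9 and 4611 CPM, high in WT 2, Het 1, Het 2, Het 4 and KO 2, and so were not split by genotype. In KO 2 a single cell gave 6947 UMIs of Hbb-bs, which stood at 20.8 CPM without it, and 1 cell likewise gave most of the UMIs of this gene in WT 3, Het 1, Het 2 and Het 4. The 6 interneuron markers summed to between 149 and 195 CPM in WT, between 121 and 179.8 in Het and between 7.45 and 86.5 in KO, and most of that sum was Npy, described below, in every embryo but KO 1. The part of these other cells' RNA in the results was not tested.

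Cells that passed the whole Inhba-positive gate made up a smaller share of the Neurod6-positive cells in KO than in WT. The share was 5.54%, 6.68% and 5.30% in WT, 4.04%, 5.12%, 5.54% and 4.72% in Het and 2.78%, 3.03% and 2.84% in KO. KO embryos lay below all others, and Het and WT embryos overlapped. Wilson 95% intervals ran from 2.29% to 3.35% for KO 1 and from 4.69% to 5.99% for WT 3, and cover counting error only. Means were 5.84% ± 0.739 (SD, n = 3) in WT, 4.85% ± 0.635 (n = 4) in Het and 2.88% ± 0.133 (n = 3) in KO. The KO share was 0.493 times that of WT (exact two-sided permutation p = 0.1, the smallest 3 embryos against 3 can give). Against Het 1 to 3, which share the prefix, it was 0.588 times (exact p = 0.1, again the smallest possible). Against all 4 Het embryos the exact permutation p was 0.0286, the smallest for 3 against 4. The difference of Het from WT, -0.986 percentage points, did not pass (exact permutation p = 0.114). Gated cells cannot tell fewer neurons of a kind from less RNA of the gate genes per neuron.

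After every Neurod6-positive cell had been thinned to 5000 UMIs, which left out 70 to 616 shallower cells per embryo and 8 Inhba-positive cells, the shares were 2.11%, 1.96% and 1.81% in WT, 0.752%, 1.38%, 1.31% and 1.49% in Het and 0.591%, 0.418% and 0.437% in KO. The KO share was then 0.246 times that of WT. All Het embryos fell below all WT embryos, with a difference of -0.724 percentage points (exact permutation p = 0.0286, the smallest possible), so the call on Het depends on the depth.

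**Figure D2:**
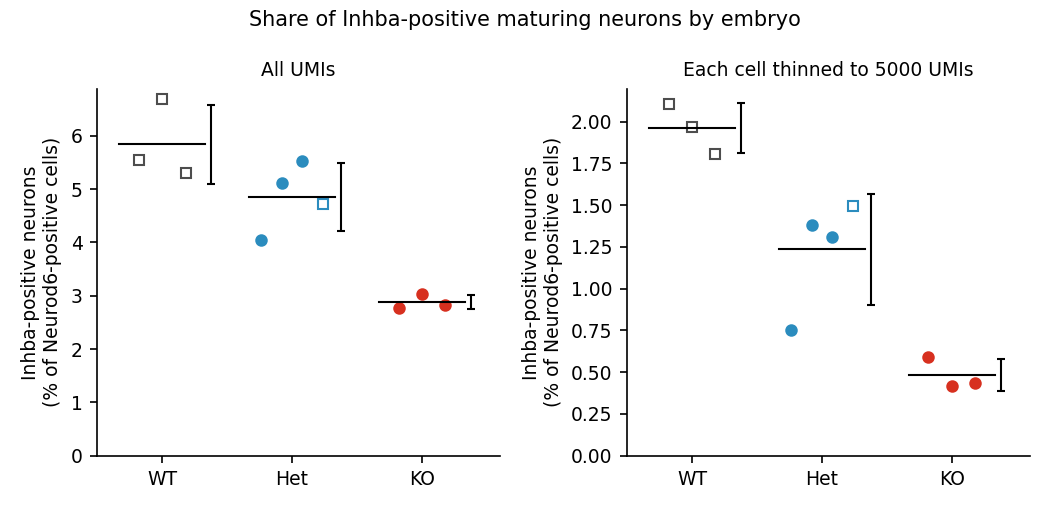
Share of Inhba-positive cells among the Neurod6-positive cells of each embryo, in percent, with all UMIs (left) and after thinning every cell to 5000 UMIs (right). Each point is 1 embryo, squares are the libraries of the prefix that all WT embryos carry and circles those of the other prefix, and bars beside the points give the mean and SD; the KO embryos lie at 2.78% to 3.03% with all UMIs, below every WT and Het embryo.

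The genes of the gate did not move alike between genotypes. The share of Neurod6-positive cells with an Inhba UMI was 16.47%, 16.2% and 16.2% in WT, 16%, 16.1%, 16.8% and 16.52% in Het and 15.3%, 17.6% and 15.5% in KO, and the genotypes overlapped. Thinned to 5000 UMIs, it was 10.3%, 9.56% and 10.1% in WT and 7.77%, 9.62% and 8.31% in KO. The share with a Kif26b UMI was 24.2%, 28.3% and 24.4% in WT, 18.5%, 21.1%, 22.8% and 18.9% in Het and 11.1%, 10.6% and 11.2% in KO, without overlap of KO with the others. The share with an Nwd2 UMI was 4.52%, 7.06% and 4.77% in WT and 1.51%, 1.5% and 2.24% in KO, and that with a Kcnip4 UMI 9.98%, 12.6% and 10.7% in WT and 7.71%, 5.73% and 6.56% in KO. Both KO ranges lay below those of WT and Het. For Nrgn it was 12.4%, 17% and 14% in WT and 9.62%, 6.36% and 7.80% in KO, where KO overlapped Het. Since endothelial cells held Nrgn nearly as often, this share is not read as expression. The share with a Syt4 UMI went the other way, with 73.6%, 75.5% and 72.9% in WT and 78.7%, 77.2% and 76.2% in KO, but thinned to 5000 UMIs it was 62.7%, 63% and 63.4% in WT and 59.8%, 60.7% and 60.5% in KO. For Scg2, KO and WT overlapped with all UMIs, at 10.4%, 12.7% and 11.2% in WT and 10.9%, 10.1% and 11.7% in KO, and not after thinning, at 5.47%, 5.61% and 5.75% in WT and 4.05%, 3.87% and 4.81% in KO.

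Summed over all Neurod6-positive cells, a population not chosen on them, Inhba and 4 of the 6 accompanying genes were called lower in KO than in WT, where 25.4% of all 16626 genes were called and 13.3% called lower. Kif26b stood at 36.4, 37.5 and 37.7 CPM in WT, 22.2, 26.7, 28.8 and 22.9 in Het and 12, 11.5 and 13.1 in KO (log2 fold change -1.61 ± 0.09 (SE), adjusted p = 5.04e-07), and also fell in KO against Het 1 to 3 (log2 fold change -1.08 ± 0.09 (SE), adjusted p = 0.000143). Nwd2 stood at 8.38, 13 and 8.87 CPM in WT, 3.89, 7.53, 7.56 and 4.86 in Het and 1.43, 1.60 and 2.21 in KO (log2 fold change -2.53 ± 0.28 (SE), adjusted p = 4.96e-05). It had the largest change of these 7 genes, and the 3 KO embryos lay below the others. Inhba stood at 41.6, 37.1 and 38.9 CPM in WT, 27.5, 33.1, 39.2 and 36.6 in Het and 25.5, 28.8 and 27.2 in KO (log2 fold change -0.53 ± 0.10 (SE), adjusted p = 0.00208), and Het 1 lay within the KO range. Within 1 prefix, KO did not differ from Het by the test in Inhba (log2 fold change -0.29 ± 0.11 (SE), adjusted p = 0.12). Nrgn (log2 fold change -1.15 ± 0.32 (SE), adjusted p = 0.0139) and Kcnip4 (log2 fold change -0.92 ± 0.14 (SE), adjusted p = 0.000376) were lower in KO. The level of Nrgn carries the limit given above, that endothelial cells held it nearly as often as Neurod6-positive cells. Scg2 (log2 fold change -0.24 ± 0.17 (SE), adjusted p = 0.274) and Syt4 (log2 fold change -0.08 ± 0.06 (SE), adjusted p = 0.327) did not pass. Dlx1, Dlx2 and Dlx5 had log2 fold changes of -1.23, -0.95 and -0.60. The Neurod6-positive cells were limited to at most 1 UMI summed over these genes, so their levels are given as a description. A fit with the prefix as a covariate called Kif26b and Nwd2 of the 7. Nrgn had a log2 fold change of -1.16 there (adjusted p = 0.248), Kcnip4 -0.63 (adjusted p = 0.0945) and Inhba -0.39 (adjusted p = 0.204). Het 4 is the only mutant library with the prefix of the WT libraries, so in this fit KO and WT are linked through Het 4 alone, here and in the results that follow. Since genes of the gate differ by genotype, a change in a neuron and a different choice of neurons by the gate cannot be told apart in the comparisons that follow.

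Between KO and WT, 1494 of 11666 genes were called in the Inhba-positive cells (12.8%), 741 higher (6.35%) and 753 lower (6.45%), and over all genes tested the median log2 fold change was 0.00483. The KO and WT embryos did not overlap in 1477 of the 1494 and in 3843 of all 11666 genes tested (32.9%). With the library prefix as a covariate 308 genes were called, 278 of them among the 1494. Of 73 called genes that were the target, a largest change or a list member, 39 were not called in that fit. Here and below, the largest changes are those among called genes that met the naming rule. That rule asks for at least 20 CPM in the higher group and no overlap of the groups. Among the 10 largest increases were neurofilament genes, a netrin-G gene, Fos and Fst.

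Nefl and Nefm encode the light and medium neurofilament chains of axons. Nefl stood at 102, 78.5 and 65.8 CPM in WT, 124, 137, 141 and 102 in Het and 281, 349 and 304 in KO (log2 fold change 1.92 ± 0.14 (SE), adjusted p = 4.69e-07). Nefm stood at 199, 131 and 114 CPM in WT, 200.5, 169, 183 and 179 in Het and 447, 507 and 461 in KO (log2 fold change 1.67 ± 0.15 (SE), adjusted p = 2.64e-06). In both genes every KO embryo was above every Het and WT embryo. Cells with a Nefl UMI made up 27.7% to 40.4% of the cells of a WT embryo, 45.5% to 50.7% of a Het embryo and 81.6% to 86.7% of a KO embryo. The Inhba-positive cells of KO were deeper, with a median of 28437 to 28645 UMIs against 21486 to 27438 in WT. Thinned to 5000 UMIs, which left out 8 cells, the share with Nefl was 12.2% to 19.2% of WT cells, 24.4% to 26.7% of Het cells and 45.6% to 64.8% of KO cells. Nrip1, a corepressor of nuclear receptors, stood at 152, 148 and 134 CPM in WT, 157, 197, 215 and 227 in Het and 491, 515 and 481 in KO (log2 fold change 1.77 ± 0.11 (SE), adjusted p = 6.83e-08), and KO was again above all others. Nr4a2, a nuclear receptor that marks subplate and some deep neurons, stood at 30.1, 47 and 45 CPM in WT, 126, 82.9, 68.9 and 78.1 in Het and 169.8, 183 and 166 in KO (log2 fold change 2.08 ± 0.18 (SE), adjusted p = 2.65e-06). Its Het embryos lay between WT and KO without overlap, and cells with an Nr4a2 UMI made up 16.53% to 22.6% of the cells of a WT embryo, 29.2% to 37.4% of a Het embryo and 47.6% to 59.2% of a KO embryo (thinned, 7.56% to 10.6% of WT cells, 15.9% to 21.3% of Het cells and 30.5% to 36.3% of KO cells).

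Ntng1, a netrin-G adhesion protein of axons, stood at 8.43, 7.27 and 6.40 CPM in WT, 15.5, 11.2, 13.6 and 11.8 in Het and 17.6, 31.6 and 24.6 in KO (log2 fold change 1.71 ± 0.20 (SE), adjusted p = 4.35e-05). Rwdd3, which promotes the attachment of SUMO to proteins, stood at 4.94, 5.60 and 9.69 CPM in WT, 7.26, 9.61, 7.32 and 5.92 in Het and 22.7, 20.8 and 25.2 in KO (log2 fold change 1.80 ± 0.22 (SE), adjusted p = 7.12e-05). Prkcd, protein kinase C delta, was at 12.6, 12 and 9.88 CPM in WT, 17.3, 17.6, 30.5 and 16.9 in Het and 32.6, 37.3 and 40.3 in KO (log2 fold change 1.66 ± 0.20 (SE), adjusted p = 5.45e-05). The Het embryos of Prkcd were even but for Het 3. Fxyd7, a regulator of the sodium pump, stood at 11.6, 7.75 and 6.77 CPM in WT, 15.5, 13.4, 32.1 and 17.4 in Het and 32.9, 21.6 and 59.4 in KO (log2 fold change 2.15 ± 0.35 (SE), adjusted p = 0.000803), and in Het 3 a single cell gave 108 of its UMIs. With the library prefix as a covariate, Rwdd3 (adjusted p = 0.132), Prkcd (0.0561) and Fxyd7 (0.137) were no longer called.

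The 10 largest decreases included channels, adhesion molecules and a neuropeptide. Kcnj2, an inwardly rectifying potassium channel, stood at 25, 21.2 and 19.6 CPM in WT, 14.3, 15.4, 17.9 and 9.97 in Het and 1.92, 1.92 and 1.16 in KO (log2 fold change -3.73 ± 0.30 (SE), adjusted p = 9.98e-07). UMIs of Kcnj2 were found in 30.6% to 36% of the cells of a WT embryo, 19% to 29.8% of a Het embryo and 0.952% to 4.40% of a KO embryo, so the KO level rests on a handful of cells. Trpc4, a cation channel, stood at 24.6, 25.1 and 30.5 CPM in WT, 11.9, 10.6, 9.96 and 11.2 in Het and 6.08, 6.54 and 6.08 in KO (log2 fold change -2.09 ± 0.16 (SE), adjusted p = 6.47e-07), and its 3 groups did not overlap. Lpl, lipoprotein lipase, stood at 21.4, 19.4 and 33.3 CPM in WT, 13.1, 16.4, 22.6 and 15.5 in Het and 1.60, 5.0 and 2.90 in KO (log2 fold change -2.98 ± 0.34 (SE), adjusted p = 3.71e-05). Tnr, the matrix protein tenascin R, stood at 66.5, 65.1 and 71 CPM in WT, 38.9, 42.3, 46.5 and 41.9 in Het and 17.9, 16.9 and 21.7 in KO (log2 fold change -1.82 ± 0.10 (SE), adjusted p = 4.5e-08). All of these stayed below WT and Het in every KO embryo.

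Among adhesion genes, the protocadherin Pcdh19 stood at 15.5, 27.9 and 23.8 CPM in WT, 22, 18.6, 23.2 and 13.2 in Het and 4.16, 5.39 and 6.66 in KO (log2 fold change -2.04 ± 0.30 (SE), adjusted p = 0.000298) and the cadherin Cdh6 at 57.7, 68.5 and 51.2 CPM in WT, 37.5, 44.9, 65.2 and 50.9 in Het and 7.04, 21.2 and 18.8 in KO (log2 fold change -1.94 ± 0.25 (SE), adjusted p = 0.000108). For both, the Het and WT embryos overlapped. Cxxc4, an inhibitor of Wnt signalling, stood at 72.7, 90.6 and 85.2 CPM in WT, 47.3, 59.3, 82.9 and 38.2 in Het and 18.2, 22.7 and 20.3 in KO (log2 fold change -2.03 ± 0.24 (SE), adjusted p = 4.04e-05). Dtx4, a ubiquitin ligase of the deltex family, stood at 63.5, 60.8 and 68.6 CPM in WT, 30.0, 42.1, 50.6 and 37.5 in Het and 14.1, 20.4 and 14.2 in KO (log2 fold change -2.0 ± 0.17 (SE), adjusted p = 2.07e-06), and its 3 groups were apart. The kinase gene Mast4, itself a leading gene of these cells, stood at 65.8, 77.7 and 70.8 CPM in WT, 32.1, 41.9, 77.2 and 67.1 in Het and 14.1, 11.2 and 26.6 in KO (log2 fold change -2.0 ± 0.30 (SE), adjusted p = 0.000433).

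Npy, neuropeptide Y, stood at 136, 183 and 141 CPM in WT, 175, 138, 168 and 111 in Het and 2.24, 82.7 and 17.1 in KO (log2 fold change -2.27 ± 0.50 (SE), adjusted p = 0.00643). In KO 2 a single cell gave 183 of the 215 Npy UMIs. With each gene's highest cell left out of every embryo, Npy stood at 1.60, 12.3 and 8.40 CPM in KO, with a log2 fold change of -4.18 (adjusted p = 8.8e-09). Npy also stands on the interneuron marker list, and the UMIs of Dlx1, Dlx2 and Dlx5 were limited by the gate. Of the 20 largest changes, 15 were called with the prefix as a covariate, where Mast4 (adjusted p = 0.081) and Npy (0.0865) were the other 2 lost. DESeq2 called 19, all but Npy.

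**Figure D3:**
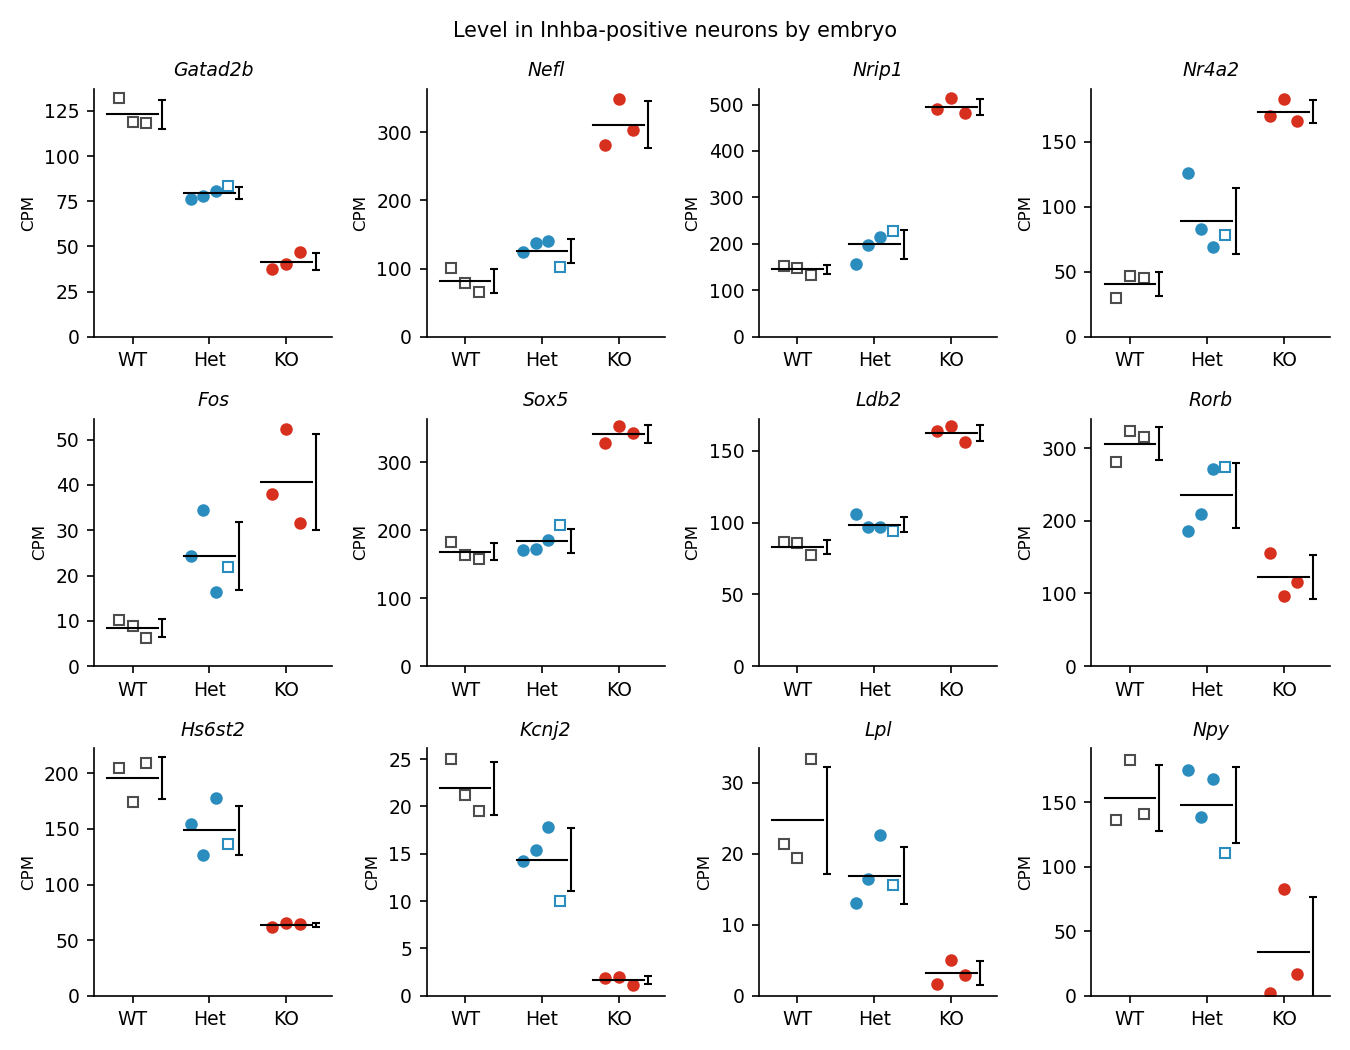
Level of 12 genes in the Inhba-positive cells of each embryo, in TMM-normalized CPM, with a panel per gene and its own axis. Each point is 1 embryo and squares are the libraries of the prefix that all WT embryos carry; Gatad2b falls from 118 or more in WT to 46.6 or less in KO, and Nefl, Nrip1 and Sox5 stand apart in KO from both other groups.

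Immediate early genes, which were low in these cells against other neurons, were in part higher in KO. By the paper's methods, the cortex was digested with warm papain and disrupted by pipette before capture. The part of that step in these levels, and that of neuronal activity in the embryo, was not tested. Of 11 tested, 7 were called higher in KO than in WT (background 6.35% of all genes called higher) and 0 lower, with a median log2 fold change of 1.01. Between Het and WT, 2 of the 11, Fos and Jun, were called, where 0.711% of all genes were. Fos, a subunit of the AP-1 transcription factor, stood at 10.2, 8.94 and 6.22 CPM in WT, 24.4, 34.5, 16.46 and 22 in Het and 38.1, 52.3 and 31.6 in KO (log2 fold change 2.22 ± 0.25 (SE), adjusted p = 3.24e-05). Its partner Jun stood at 47.5, 35.3 and 37.3 CPM in WT, 73.1, 81.1, 57.1 and 61.7 in Het and 130.2, 102 and 85.1 in KO (log2 fold change 1.40 ± 0.16 (SE), adjusted p = 2.91e-05). Both were above WT in every Het and KO embryo. Fosb stood at 12.2, 11.2 and 9.14 CPM in WT, 25.3, 30.8, 18.1 and 11.8 in Het and 35.5, 35.8 and 31.6 in KO (log2 fold change 1.64 ± 0.25 (SE), adjusted p = 0.000506), and Het 4, which has the prefix of the WT libraries, stood at the WT level. Egr1 was close to the WT level in Het 4 too, with 1.74, 1.67 and 1.65 CPM in WT, 6.56, 4.01, 2.64 and 1.86 in Het and 7.68, 7.31 and 4.63 in KO (log2 fold change 1.93 ± 0.42 (SE), adjusted p = 0.00584). Btg2, Dusp1 and Ier2 rose by smaller amounts (1.01, 0.71 and 0.70 on the log2 scale). With the prefix as a covariate, Fos (adjusted p = 0.0171) and Jun (0.023) were still called and the other 5 were not.

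Many immediate early genes carry the core TGACG of binding sites of the factor CREB close to their start. The 250 bases before the start of Fos, Fosb and Jun in RefSeq are shown because these are the AP-1 subunits called higher in KO. The window of Fos is chr12:85473640-85473889 on the plus strand that of Fosb chr7:19310046-19310295 on the minus strand and that of Jun chr4:95052223-95052472 on the minus strand, all of GRCm38.p6 and written 5′ to 3′ along the gene. Capitals mark TGACG on either strand.
Fos: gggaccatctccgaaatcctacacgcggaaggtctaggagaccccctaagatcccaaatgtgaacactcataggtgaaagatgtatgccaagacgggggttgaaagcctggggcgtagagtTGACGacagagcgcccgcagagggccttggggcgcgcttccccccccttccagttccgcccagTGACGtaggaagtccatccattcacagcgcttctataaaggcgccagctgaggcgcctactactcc
Fosb: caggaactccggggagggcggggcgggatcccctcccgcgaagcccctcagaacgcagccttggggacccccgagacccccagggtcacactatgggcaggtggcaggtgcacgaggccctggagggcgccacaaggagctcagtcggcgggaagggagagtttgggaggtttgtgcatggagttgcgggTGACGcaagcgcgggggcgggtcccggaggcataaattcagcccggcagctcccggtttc
Jun: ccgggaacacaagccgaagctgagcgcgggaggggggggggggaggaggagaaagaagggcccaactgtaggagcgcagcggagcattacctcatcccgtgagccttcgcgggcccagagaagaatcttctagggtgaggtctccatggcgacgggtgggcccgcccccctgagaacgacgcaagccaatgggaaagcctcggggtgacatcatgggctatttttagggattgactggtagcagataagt
TGACG occurred on either strand 2 times before Fos, 1 time before Fosb and 0 times before Jun. It was present before 4 of the 5 called genes with a window in the RefSeq table (Fos, Fosb, Dusp1 and Btg2, not Jun), before 10 of 12 on the whole list with a window, and before 17.9% of 27025 RefSeq windows. The full palindrome TGACGTCA, which contains it, was found before 2 of the 5 (Dusp1 and Btg2) and in 1.62% of all windows. The AP-1 motif TGANTCA was before 0 of the 5, against 6.87% of windows. The window of Inhba held none of these letters. A match describes the letters and not binding.

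Among layer markers, the called upper-layer genes were mostly lower and the called deep-layer genes higher in KO. Of 11 upper-layer genes tested, 4 were called lower and 1 higher, where 6.45% of all genes were called lower and 6.35% higher. Hs6st2, a heparan sulfate sulfotransferase, stood at 205, 174 and 209 CPM in WT, 155, 127, 177 and 136 in Het and 61.7, 65 and 64.3 in KO (log2 fold change -1.62 ± 0.12 (SE), adjusted p = 3.48e-07). Rorb stood at 281, 323 and 315 CPM in WT, 186, 209, 272 and 275 in Het and 155, 96.2 and 116 in KO (log2 fold change -1.32 ± 0.16 (SE), adjusted p = 5.31e-05). For both, the 3 KO embryos were below all others. Mef2c (-0.57, adjusted p = 6.62e-05) and the POU factor Pou3f2 (-0.55, adjusted p = 0.00263) were also lower, and Lhx2 was higher (0.43, adjusted p = 0.0108). Of 7 layer V genes, 3 were higher and 0 lower. Ldb2, a cofactor of LIM domain factors, stood at 86.6, 85.4 and 77.5 CPM in WT, 106, 96.9, 96.5 and 94.3 in Het and 164, 167 and 156 in KO (log2 fold change 0.96 ± 0.07 (SE), adjusted p = 3.92e-07). Bcl11b stood at 99.5, 83.5 and 90.3 CPM in WT, 107, 104, 89.6 and 88.2 in Het and 109, 136 and 226 in KO (log2 fold change 0.79 ± 0.18 (SE), adjusted p = 0.0083), with most of the rise in KO 3, and Fezf2 had a log2 fold change of 0.31, adjusted p = 0.0454.

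Of 7 layer VI genes, 2 were higher and 0 lower (6.35% and 6.45% of all genes): Sox5, a transcription factor of deep-layer neurons, stood at 182, 164 and 158 CPM in WT, 171, 172, 186 and 208 in Het and 328, 354 and 342 in KO (log2 fold change 1.02 ± 0.08 (SE), adjusted p = 1.07e-06), and Tbr1, which is on the list of immature neurons too, changed by 0.30, adjusted p = 0.028. The upper-layer list had a median log2 fold change of -0.22, the layer V list 0.22 and the layer VI list 0.23. With the prefix as a covariate Sox5, Ldb2, Hs6st2, Rorb and Mef2c were called, and Bcl11b, Fezf2, Tbr1, Lhx2 and Pou3f2 were not. Of 2 subplate genes tested, Nr4a2 was higher.

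Shares of cells were compared too. The share of Inhba-positive cells with a Rorb UMI was 68.2%, 76.1% and 68.2% in WT, 60.0%, 62.4%, 68.5% and 65.2% in Het and 51.5%, 50.5% and 55.2% in KO. The share with both Fezf2 and Bcl11b was 14.7%, 15.4% and 10.3% in WT, 16.1%, 10.5%, 10.7% and 17.6% in Het and 25.2%, 30.8% and 31.4% in KO. KO embryos lay apart from all others in both. In the share with a Fezf2 UMI, KO overlapped Het, at 32.9%, 33.3% and 23.6% in WT, 34.2%, 28.2%, 32% and 40.3% in Het and 35%, 41.8% and 39% in KO, and the share with both Rorb and Fezf2 overlapped between all genotypes. Thinned to 5000 UMIs, the share with a Rorb UMI was 43.3%, 51.4% and 48.3% in WT, 34.8%, 41.4%, 44.9% and 42.1% in Het and 32%, 19.8% and 29.5% in KO, still without overlap of KO with the others. The thinned share with both Fezf2 and Bcl11b was 4.81%, 4.58% and 2.94% in WT, 6.45%, 3.31%, 3.41% and 4.07% in Het and 6.80%, 3.30% and 10.5% in KO. The genotypes overlapped there, so the higher joint share in KO rests on all UMIs. For Bcl11b alone the thinned share was 17.2%, 14.4% and 14.3% in WT, 17.4%, 12.7%, 11.9% and 14.9% in Het and 22.3%, 27.5% and 39.0% in KO. In that share KO lay above all others, while the thinned share with a Fezf2 UMI overlapped between genotypes. In the cells without a Fezf2 UMI, 1181 genes were called between KO and WT, of which 981 were among the 1494, and all 20 of the largest changes were among them. This restriction and the thinning of these shares were chosen after the data had been seen.

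**Figure D4:**
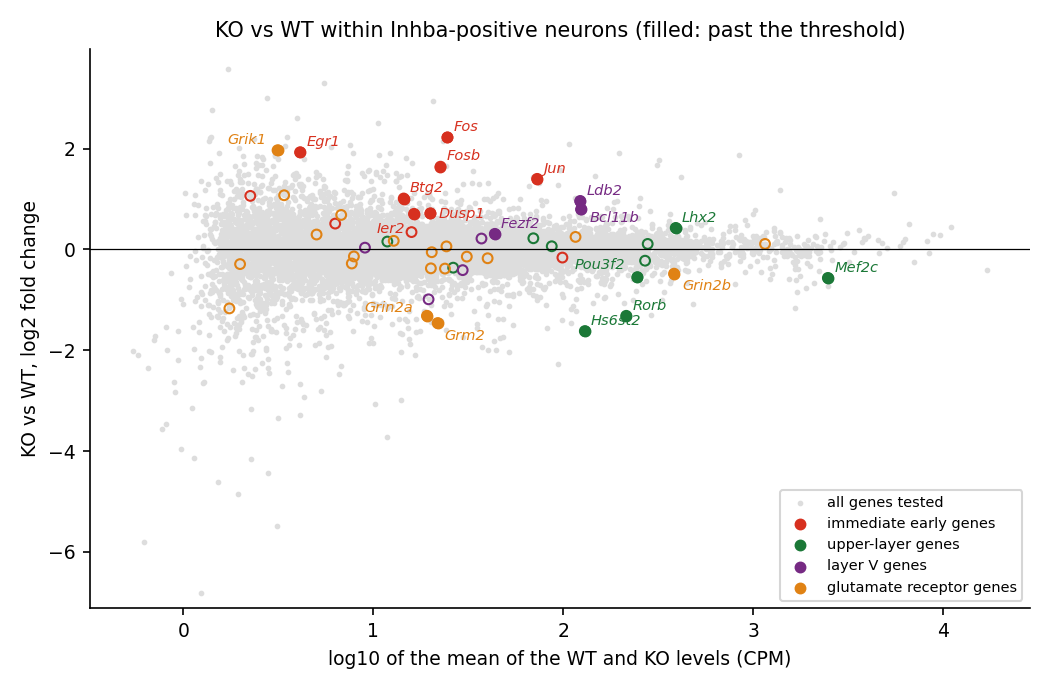
Log2 fold change between KO and WT in Inhba-positive cells against the mean level (log10 CPM), for all genes tested (grey) and 4 gene lists (immediate early red, upper-layer green, layer V purple, glutamate receptor orange). Filled points passed both thresholds; the called immediate early genes lie above 0 and 4 of the 5 called upper-layer genes below.

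Most genes of the activin pathway did not pass in KO. Of 10 ligand and receptor genes tested, 1 was higher and 2 lower (background 6.35% and 6.45% of all genes), with a median log2 fold change of 0.03. Tgfbr1, which was high in these cells, stood at 143, 145 and 162 CPM in WT, 103, 103, 149.8 and 129.6 in Het and 93.1, 84.3 and 82.3 in KO (log2 fold change -0.79 ± 0.12 (SE), adjusted p = 0.000538). Acvr1 stood at 66, 72.6 and 73 CPM in WT, 57.9, 53.3, 64 and 68.1 in Het and 46.4, 55.4 and 43.7 in KO (log2 fold change -0.55 ± 0.10 (SE), adjusted p = 0.00239), and Bmpr2, the type II receptor of bone morphogenetic proteins, had a log2 fold change of 0.29, adjusted p = 0.00686. The activin receptor genes Acvr2a (0.30, adjusted p = 0.112), Acvr2b (-0.07, adjusted p = 0.777), Acvr1b (0.27, adjusted p = 0.163) and Acvr1c (-0.05, adjusted p = 0.92) did not pass. None of the 3 called genes passed with the prefix as a covariate (Tgfbr1 adjusted p = 0.127).

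Of 9 inhibitors and Smads, 2 were higher and 1 lower, against 6.35% and 6.45% of all genes. Fst, which encodes follistatin, stood at 4.80, 2.38 and 7.32 CPM in WT, 13.1, 17.2, 6.5 and 15.7 in Het and 18.9, 62.3 and 27.8 in KO (log2 fold change 2.95 ± 0.44 (SE), adjusted p = 0.000361), the largest increase among the named genes. In KO 2 a single cell gave 116 of its 162 UMIs. With the highest cell of each embryo left out, Fst stood at 3.20, 1.67 and 3.66 CPM in WT and at 13.4, 17.7 and 19.4 in KO, a log2 fold change of 2.67 (adjusted p = 2.19e-06). UMIs of Fst were found in 3.16% to 3.72% of the cells of a WT embryo, 6.63% to 11% of a Het embryo and 8.74% to 11.4% of a KO embryo (thinned to 5000 UMIs, 1.37% to 2.1% of WT cells, 1.70% to 7.10% of Het cells and 2.91% to 5.71% of KO cells), so most of these neurons showed none. Skil, which encodes a repressor of Smads, was higher (0.50, adjusted p = 0.00165) and Smad2 lower (-0.30, adjusted p = 0.0398). Once the prefix was a covariate, the call on Fst held, and those on Skil and Smad2 were lost.

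Of 11 neuropeptide and dense-core vesicle genes, 1 was higher and 3 lower in KO. Cpe, carboxypeptidase E, which trims peptide hormones, stood at 141, 156 and 162 CPM in WT, 119.9, 114, 125 and 120.2 in Het and 66.8, 52.3 and 80.8 in KO (log2 fold change -1.18 ± 0.11 (SE), adjusted p = 4.21e-06). The amidating enzyme gene Pam (-0.57, adjusted p = 0.00787) and the granin gene Scg3 (-0.45, adjusted p = 0.00165) were lower as well, while Bdnf, a neurotrophin, stood at 9.30, 8.70 and 10.1 CPM in WT, 13.1, 17.6, 14.4 and 17.7 in Het and 22.4, 19.2 and 11.6 in KO (log2 fold change 0.92 ± 0.21 (SE), adjusted p = 0.00834). Of 7 genes of A-type potassium channel complexes, Dpp10, an auxiliary subunit, was lower at 5.52, 7.98 and 7.68 CPM in WT, 3.51, 4.01, 3.66 and 2.54 in Het and 0.959, 1.92 and 0.579 in KO (log2 fold change -2.66 ± 0.39 (SE), adjusted p = 0.000311). Of 21 calcium and calmodulin genes, 3 were higher and 0 lower: Cabp1, a calcium-binding protein, stood at 41, 40.8 and 36.8 CPM in WT, 50.1, 48.5, 61.8 and 47.2 in Het and 88, 75.8 and 74.1 in KO (log2 fold change 1.00 ± 0.10 (SE), adjusted p = 1.31e-05), and Camk2g (0.40, adjusted p = 0.00248) and Calm2 (0.32, adjusted p = 0.00156) moved less. Of all genes tested, 12.8% were called, and the 3 of 21 calcium genes (14.3%) and the 1 of 7 channel genes (14.3%) were near that share. Fitting the prefix as a covariate left calls on Cpe, Dpp10, Cabp1 and Calm2 and none on Pam, Scg3, Bdnf or Camk2g.

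Of 20 glutamate receptor genes, 3 were lower and 1 higher in KO (20% called, against 12.8% of all genes). Of these 4, Grm2 alone passed when the prefix was fitted too. Grin2a, an NMDA receptor subunit, stood at 25.9, 24.7 and 31.6 CPM in WT, 12.6, 14.6, 16.1 and 21.6 in Het and 10.6, 11.2 and 11 in KO (log2 fold change -1.32 ± 0.19 (SE), adjusted p = 0.000265). Grm2 stood at 35, 31.5 and 29.1 CPM in WT, 24.8, 17.4, 30.1 and 21.6 in Het and 10.6, 14.2 and 10.4 in KO (log2 fold change -1.46 ± 0.19 (SE), adjusted p = 0.000105). Grin2b, another NMDA receptor subunit, was also lower (-0.48, adjusted p = 0.00112). Grik1, a kainate receptor subunit, was higher at very low levels, with 0.872, 1.07 and 2.01 CPM in WT, 2.11, 2.0, 1.42 and 2.37 in Het and 5.76, 2.69 and 6.37 in KO (log2 fold change 1.97 ± 0.41 (SE), adjusted p = 0.00437). Of 19 synaptic vesicle genes, 3 were higher, among them Sv2b (1.16, adjusted p = 0.00165) and Syn1 (0.39, adjusted p = 0.00791), and 2 lower, Syt1 (-0.47, adjusted p = 0.00184) and Cplx1 (-0.40, adjusted p = 0.0081), in all 26.3% of the list. None of the 5 passed with the prefix fitted. The median log2 fold change was -0.14 for the glutamate receptor list and 0.02 for the synaptic vesicle list.

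Of 11 genes of immature and migrating neurons, 3 were higher and 1 lower, against 6.35% and 6.45% of all genes. The small GTPase Rnd2 (0.77, adjusted p = 0.00655) and the transcription factor Sox11 (0.38, adjusted p = 0.000176) rose, as did Tbr1, and Rnd3 fell (-1.08, adjusted p = 8.35e-05). Sox11 and Rnd3 passed with the prefix fitted, and Rnd2 and Tbr1 did not. Of 15 NuRD genes 4 were called (26.7%, against 12.8% of all genes). Cdk2ap1 (0.59, adjusted p = 0.00966), the deacetylase Hdac1 (0.39, adjusted p = 0.0487) and Mta1 (0.29, adjusted p = 0.0245) were higher and Gatad2b lower, and of these Gatad2b alone passed with the prefix fitted. The paralog Gatad2a had a log2 fold change of 0.17, adjusted p = 0.214. Of 12 genes the study picked from these embryos as sensitive to the dose of Gatad2b, 6 were higher (Sox5, Dpy19l1, Bcl11b, Robo1, H3f3b and Cdkn1c) and 5 lower (Lmo4, Frmd4a, Chl1, Arpp21 and Grin2b), which is no independent evidence of their direction. After fitting the prefix, 6 of the 11 were called (Sox5, Dpy19l1, Robo1, H3f3b, Lmo4 and Frmd4a). For Lmo4 the paper's text states a rise in Het cortical layer neurons, while its supplementary values for Het there are negative.

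Between Het and WT, 83 of 11666 genes were called (0.711%), 42 higher and 41 lower, and 1704 had an unadjusted p under 0.05. This comparison shares the WT embryos with that of KO and WT. Among the 5 largest increases, Fos (1.5, adjusted p = 0.00954) and Nr4a2 (1.12, adjusted p = 0.00907) have been described. Sparcl1, a secreted matrix protein, stood at 33.4, 31.8 and 21 CPM in WT, 47.3, 63.7, 68.1 and 73.9 in Het and 46.7, 61.2 and 72.7 in KO (log2 fold change 1.13 ± 0.17 (SE), adjusted p = 0.00571), with Het and KO overlapping. Hist1h1e, a linker histone with close relatives, stood at 48.4, 31.7 and 36.6 CPM in WT, 78.2, 84.7, 68.7 and 66.4 in Het and 77.4, 111 and 93 in KO (log2 fold change 0.94 ± 0.14 (SE), adjusted p = 0.00571). AC149090.1, a gene known by its clone name, stood at 62.8, 61.1 and 39.7 CPM in WT, 138, 127, 102 and 72.8 in Het and 127, 151 and 123 in KO (log2 fold change 0.99 ± 0.18 (SE), adjusted p = 0.0258).

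Among the decreases, Trpc4 had the largest (-1.28, adjusted p = 0.000129). Ntf3, neurotrophin-3, stood at 32.8, 31.9 and 35.5 CPM in WT, 11.7, 19.8, 22.6 and 16.2 in Het and 12.5, 8.85 and 15.1 in KO (log2 fold change -0.91 ± 0.15 (SE), adjusted p = 0.0154). The chromatin organizer Satb1 stood at 66.5, 76.4 and 72.1 CPM in WT, 42.4, 48.1, 42.9 and 35.3 in Het and 16, 22.7 and 25.2 in KO (log2 fold change -0.77 ± 0.10 (SE), adjusted p = 0.0039), in 3 groups that did not overlap. The ubiquitin ligase Wwp1 stood at 50.7, 58.8 and 61.3 CPM in WT, 36.8, 32.6, 29.1 and 35.7 in Het and 22.7, 22.3 and 23.7 in KO (log2 fold change -0.76 ± 0.09 (SE), adjusted p = 0.000819), and the kinase anchor Akap7 at 26, 25.7 and 21.2 CPM in WT, 11.7, 16.4, 15.6 and 14 in Het and 7.68, 6.93 and 12.7 in KO (log2 fold change -0.75 ± 0.15 (SE), adjusted p = 0.0349). On the gene lists, Fos, Jun, Skil, Nr4a2, Robo1 and H3f3b were called higher and Grin2a, Frmd4a and Gatad2b lower, and no gene was called on the other lists. The count was 18 with the prefix as a covariate, where Het against WT within a prefix rests on Het 4 alone. It fell to 5 without WT 3 and rose to 458 without Het 4, and it was 13 without WT 2, 22 without WT 1, 23 without Het 1, 25 without Het 2, 36 without KO 2, 51 without KO 3 and 55 without KO 1.

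Within the 1 prefix that holds both genotypes, 312 of 10869 genes were called between KO and Het 1 to 3 (2.87%), 153 higher (1.41%) and 159 lower (1.46%). The largest increases were Fst (1.52, adjusted p = 0.0441), Rwdd3 (1.51, adjusted p = 0.000222), Nrip1 (1.38, adjusted p = 6.24e-06), Nefm (1.36, adjusted p = 1.57e-06) and Nefl (1.22, adjusted p = 6.24e-06). The largest decreases with at least 20 CPM in Het were Npy (-2.34, adjusted p = 0.0163), Pcdh19 (-1.96, adjusted p = 9.98e-05), Cdh6 (-1.67, adjusted p = 0.00332), Cxxc4 (-1.64, adjusted p = 0.000203) and Mast4 (-1.51, adjusted p = 0.0189). DESeq2 did not call Fst (adjusted p = 0.308) or Npy (0.7) here. By layer, Hs6st2, Rorb, Pou3f2 and Etv1 were called lower and Ldb2 and Sox5 higher. Of the immediate early genes Jun was called (0.58, adjusted p = 0.0394), and Fos had a log2 fold change of 0.67, adjusted p = 0.159.

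For some genes the change in KO was not that of other neurons. The KO vs WT change was compared with that of the other Neurod6-positive cells of the same embryos in 1 model with a term for each embryo, in CPM normalized over both populations. It differed in 384 of 15886 genes (2.42%), 212 upwards (1.33%) and 172 downwards (1.08%). Against UMI-matched other cells it differed in 89 of 12534 (0.71%). Nr4a2 moved in opposite directions. It stood at 30.9, 48.1 and 45.9 CPM in WT and 172, 183 and 168 in KO in Inhba-positive cells and at 65.9, 73.7 and 71.3 CPM in WT and 40.2, 40.2 and 37.1 in KO in the other cells (difference 2.92 ± 0.18 (SE) on the log2 scale, adjusted p = 3.99e-07), and in the other cells it fell (-0.84, adjusted p = 5.02e-05). Cntnap5a, a neurexin-related adhesion gene, rose in Inhba-positive cells (0.94, adjusted p = 0.00523) and fell in the others (-1.14, adjusted p = 0.000908). Sparcl1 did likewise (1.05, adjusted p = 0.00155 and -0.43, adjusted p = 0.00718).

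Fst stood at 4.92, 2.44 and 7.46 CPM in WT and 19.1, 62.4 and 28.1 in KO in Inhba-positive cells and at 14.1, 23.2 and 17.4 CPM in WT and 17.8, 14.8 and 17.2 in KO in the others (difference 3.03 ± 0.54 (SE) on the log2 scale, adjusted p = 0.00384), but did not pass against matched cells (adjusted p = 0.0853). Ntng1 also differed upwards (difference 1.97 ± 0.33 (SE) on the log2 scale, adjusted p = 0.00244). Downwards, Lpl stood at 21.9, 19.9 and 34 CPM in WT and 1.62, 5.01 and 2.93 in KO in Inhba-positive cells and at 17.2, 15.8 and 16.3 CPM in WT and 15.2, 10.6 and 14 in KO in the others (difference -2.70 ± 0.34 (SE) on the log2 scale, adjusted p = 0.000218). Cdh6 fell in Inhba-positive cells and rose in the others (0.42, adjusted p = 0.0128), with a difference -2.37 ± 0.29 (SE) on the log2 scale, adjusted p = 0.000173. Satb1 stood at 68.3, 78.3 and 73.5 CPM in WT and 16.2, 22.7 and 25.5 in KO in Inhba-positive cells and at 77.1, 80.0 and 66.2 CPM in WT and 63.1, 69.4 and 74.7 in KO in the others (difference -1.66 ± 0.14 (SE) on the log2 scale, adjusted p = 3.94e-06). Pcdh19 (difference -1.5 ± 0.30 (SE) on the log2 scale, adjusted p = 0.00926) and the synaptic adhesion gene Slitrk2 (difference -1.33 ± 0.17 (SE) on the log2 scale, adjusted p = 0.000215) passed against all other cells and not against matched ones (adjusted p = 0.121 and 0.0735).

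On the gene lists, Rorb (matched difference -1.26, adjusted p = 0.0345) and Hs6st2 (-0.98, 0.00103) fell further in KO in Inhba-positive cells than in matched cells. Of the layer V genes, Ldb2 rose further (0.83, 0.00794) and Fezf2 differed downwards (-0.57, 0.0363). Mean Fezf2 went from 39.7 CPM in WT to 48.7 in KO, and from 101 to 207 in all other cells. Of 11 upper-layer genes, 4 differed downwards against all other cells and 3 (Cdh12, Cux1 and Cux2) upwards. Against matched cells, 2 of the 11 (Rorb and Hs6st2) differed downwards and 0 upwards. Tgfbr1 differed downwards (-0.74, 0.0154), having not moved by the test in the other cells (-0.00, adjusted p = 0.973). Nfia, a transcription factor on the study's dose-sensitive list, rose in KO in the other cells (1.16, adjusted p = 1.41e-06) and not by the test in the Inhba-positive cells (0.13, adjusted p = 0.599), with a matched difference of -0.92 (adjusted p = 0.00141). Sox5, by contrast, changed by 1.02 here and 0.99 in the others, and the difference did not pass (0.02, adjusted p = 0.961).

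**Figure D5:**
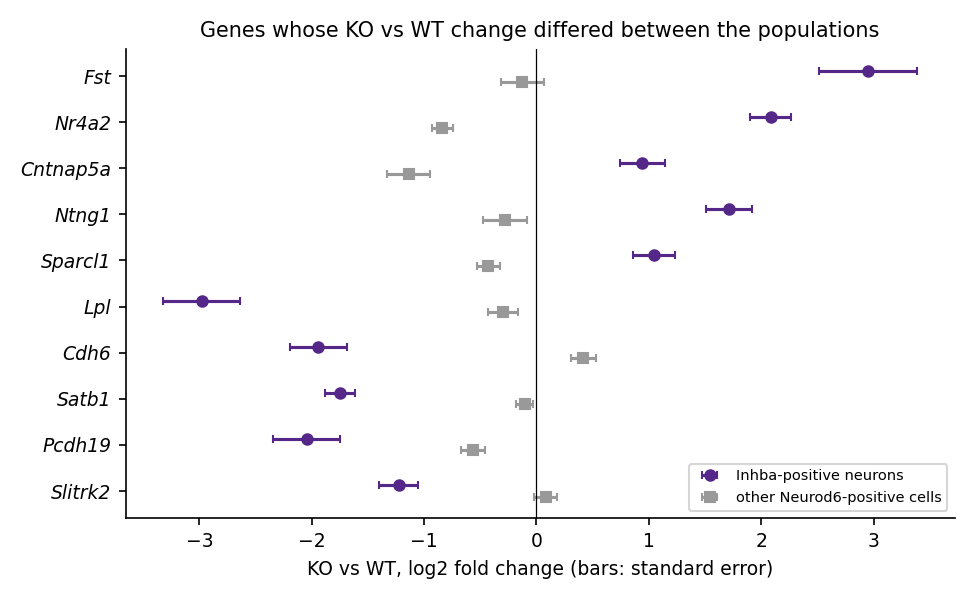
Log2 fold change between KO and WT, with its SE, in Inhba-positive cells and in the other Neurod6-positive cells of the same embryos, for the 5 genes with the largest upward and the 5 with the largest downward difference among those that met the naming rule. That rule asks for a call, at least 20 CPM in Inhba-positive cells of KO or WT and no overlap of KO and WT embryos in the difference. Called genes below that level, such as Grik1, are not shown. Nr4a2 lies at 2.08 in Inhba-positive cells and at -0.84 in the others.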

How the data were processed

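Single-cell RNA sequencing libraries of the cortex of 10 mouse embryos (3 WT, 4 Het, 3 KO) were used. The authors aligned the reads to mm10 with Cell Ranger and deposited, per embryo, raw UMI counts of each gene in each barcode. The submitters' processing notes name Cell Ranger 6.0.2, a later release than the methods. Embryos are separate animals, and groups and replicate numbers were taken from the labels.

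Cells with 1000 UMIs or more were kept if mitochondrial genes gave no more than 10% of them. Kept UMIs per library ranged from 82872641 to 123737385. Doublets were scored with Scrublet in scanpy 1.11.5, and as many of the highest-scoring cells as the barcode number predicts were marked but not removed. UMIs were summed per embryo and fitted with edgeR 4.0.16 (limma 3.58.1, R 4.3.3) by its quasi-likelihood F-test after TMM normalization and the filterByExpr filter, with all 10 embryos in 1 fit. KO against Het 1 to 3 had a fit of its own. The 11 gate genes were left out of counts. The SE is the log2 fold change divided by the root of F. Other Neurod6-positive cells were matched without replacement on total UMIs within an embryo, 1 per Inhba-positive cell. Members against other cells were compared in log2(CPM + 5) without a test. Shares were compared by two-sided exact permutation tests in scipy 1.17.1 (Python 3.11.15, numpy 2.4.6, pandas 2.3.3), with Wilson 95% intervals, which cover counting error only. Figures used matplotlib 3.10.9. The fits were tested on simulated data.

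Genes were named if called with groups that did not overlap and at least 20 CPM in the higher group: the 10 largest increases and decreases in KO against WT and 5 each in the other comparisons. The 20 highest and 10 lowest genes against other cells, Gatad2b, the gate genes and members of the lists were named too. Predicted, sex-linked, hemoglobin, mitochondrial and rDNA genes were not named. The cells and lists were chosen with earlier results of these data known. Promoter sequences are from RefSeq (GRCm38.p6), and 12 of the 16 immediate early genes matched a window. The alternatives were DESeq2 1.42.0, other size factors, no filter on low counts, the replicate block, the prefix as a covariate, only 2 groups, other cell filters and gates, doublets removed and each embryo left out. Restricting to cells without a Fezf2 UMI and leaving out each gene's highest cell were chosen after seeing the data. Some genes counted in the lists are not reported here by name.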

Additional observations from a re-analysis of the deposited data

Results flagged for a closer look

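Prkcd was even in 3 of the 4 Het embryos (17.3, 17.6 and 16.9 CPM) and higher in Het 3 (30.5 CPM). The gap between Het 3 and its nearest neighbour was 0.947 of the whole range of the group, above Dixon's critical value at the 95% level for 4 samples. Of 33 values tested in this way 1 stood out, and chance gives about 1 in 20.

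For 10 genes the KO vs WT change differed between the Inhba-positive cells and the other Neurod6-positive cells of the same embryos by the test of the difference itself. On the log2 scale, the change in Inhba-positive cells minus that in the others was 3.03 for Fst, 2.92 for Nr4a2, 2.05 for Cntnap5a, 1.97 for Ntng1 and 1.47 for Sparcl1. It was -2.70 for Lpl, -2.37 for Cdh6, -1.66 for Satb1, -1.5 for Pcdh19 and -1.33 for Slitrk2. Fst, Pcdh19 and Slitrk2 did not pass against UMI-matched cells. The gate genes differ by genotype, so a different choice of cells in KO and a different response of the same cells cannot be told apart in these values.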

How the results depend on the processing

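No named gene called in the Inhba-positive cells, or in the difference from other cells, reversed its sign under the alternatives run. No alternative was run for calls in the other Neurod6-positive cells by themselves. With the library prefix as a covariate, 20 of the 1494 genes called between KO and WT changed sign, and 39 of the 73 named or listed genes were not called. The 83 genes called between Het and WT became 657 with no filter on low counts, 480 with the replicate block, 18 with the library prefix as a covariate, 55 with only Het and WT fitted, 23 at a mitochondrial ceiling of 5%, 25 with at least 4 of the 6 accompanying genes and 147 with each gene's highest cell left out. They ranged from 5 to 458 when an embryo was left out. The 1494 genes called between KO and WT became 308 with the prefix as a covariate, of which 278 were shared, 966 with at least 4 of the 6 genes, 1149 with DESeq2 and 1618 with the replicate block, and ranged from 1030 to 1674 with an embryo left out. The 312 genes of KO against Het 1 to 3 became 697 with no filter and ranged from 179 to 245, the lower end without Het 2, with 206 without KO 2. The 384 genes of the difference between populations became 663 with no filter and 89 with UMI-matched cells. The 5 gate genes called over all Neurod6-positive cells became 2 with the prefix as a covariate and 2 within the prefix. The share in Het minus WT was -0.724 percentage points after thinning, then past the threshold. Fos in Het against WT was not called with the prefix as a covariate, at the 5% ceiling, or without WT 2 or WT 3, and its adjusted p was between 0.0608 and 0.236 there. The cause of these shifts was not tested. Replicate numbers gave no clear pairing of the embryos: correlations of same-numbered embryos ran from -0.382 to 0.334, and 1 of 10 embryos correlated best with its own number. With so few embryos a group, these correlations cannot exclude shared litters or processing. The paper calls the WT and Het embryos littermates, and the labels name no litters. Depth limits Grik1 and Egr1, and Kcnj2 in KO, which rest on few UMIs per embryo, and Fst, of which few cells held a UMI.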

Other observations

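The other Neurod6-positive cells lost RNA of several glutamate receptor genes in KO that the Inhba-positive cells did not lose by the test. Gria2, an AMPA receptor subunit, fell in the other cells (-0.34, adjusted p = 0.00235) and had a log2 fold change of 0.11, adjusted p = 0.355 in Inhba-positive cells. Grm5 (-0.44, adjusted p = 0.00341), Gria4 (-0.77, adjusted p = 3.18e-05) and Grm7 (-0.82, adjusted p = 0.0253) fell in the other cells as well, against 0.25, adjusted p = 0.209, -0.06, adjusted p = 0.866 and 0.17, adjusted p = 0.78 in Inhba-positive cells. The difference passed for 6 of the 20 receptor genes, all upwards, where 1.33% of all genes passed upwards. Against UMI-matched cells it passed for 0 of the 20 by edgeR (for example Gria2, adjusted p = 0.128). There 10 of the 20 had an unadjusted p under 0.05, as did 1394 of all 12534 genes, and no result is read from these 10.

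Acvr1c, an activin type I receptor, rose in the other cells in KO (1.41, adjusted p = 1.77e-05) and not by the test in Inhba-positive cells (-0.05, adjusted p = 0.92), with a difference of -1.49, adjusted p = 0.00331 (0.279 against matched cells). Among NuRD genes, Chd4 differed downwards against both all other and matched cells (-0.36, adjusted p = 0.000742, and -0.40, adjusted p = 0.0207), without passing in either population by itself. The median Inhba count of an Inhba-positive cell was 3 to 5 UMIs in each of the 10 embryos, and the genotypes overlapped.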
